A study of Homo sapiens with 6 samples.

Results

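The 9 genes described here encode the cereblon ubiquitin ligase and proteins tied to it: CRBN, DDB1, CUL4A, CUL4B, RBX1, IKZF1, IKZF3, ZFP91 and BSG. They were chosen by symbol, for their place in the pathway, and all 9 were found among the 12075 genes of the FPKM table (fragments per kilobase of a transcript's length, on a common library size) and among the 16444 genes of the spike-in table. RNA sequencing had been done on KMS27, a human multiple myeloma cell line grown from bone marrow, after the gene AATF, whose protein is called Che-1, had been silenced (siChe-1, 3 libraries) or a control siRNA had been used (siControl, 3 libraries). One cell line was used, and the labels give neither the time after silencing nor the siRNA sequences. The labels speak of libraries made in triplicate and not of separate cultures, so the p-values rest on a spread between libraries that may be technical only.

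Cereblon is the substrate receptor of a cullin-RING ubiquitin ligase. DDB1 joins it to the scaffold cullin CUL4A or CUL4B, and the RING protein RBX1 brings in the enzyme that carries ubiquitin. Lenalidomide and pomalidomide, drugs used against myeloma, bind cereblon and turn the ligase towards proteins it would otherwise leave alone, above all the lymphoid transcription factors Ikaros (IKZF1) and Aiolos (IKZF3), and also the zinc finger protein ZFP91. Basigin (BSG, CD147) is a membrane glycoprotein that cereblon helps to mature together with lactate transporters, and that the same drugs compete away from it. The measurements below are of RNA. Protein levels and drug response were not measured.

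The part of Ikaros, Aiolos and ZFP91 that the drug-bound ligase grips is a C2H2 zinc finger with a glycine beside its second cysteine. The coding DNA of that finger is shown for these 3 genes, because they are the drug-recruited substrates among the 9 genes. Each stretch has 63 bases, read 5′ to 3′ on the coding strand from GRCh38 with the GENCODE annotation, and the capitals mark the codons of the 2 cysteines, the glycine and the 2 histidines.
IKZF1, exon 5, chr7:50382557-50382619, plus strand: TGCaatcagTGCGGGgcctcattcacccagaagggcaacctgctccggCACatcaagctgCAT
IKZF3, exon 5, chr17:39791504-39791566, minus strand: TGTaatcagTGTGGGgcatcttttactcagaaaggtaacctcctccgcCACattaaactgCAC
ZFP91, exon 11, chr11:58617197-58617259, plus strand: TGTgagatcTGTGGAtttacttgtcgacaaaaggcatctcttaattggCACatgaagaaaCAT
IKZF1 and IKZF3 shared 50 of the 63 bases (79.4%), and all 21 codons encode the same amino acid in both. ZFP91 shared 30 of 63 bases with each of them, and 9 of 21 codons encode the same amino acid. Reads of IKZF1 and IKZF3 can still be told apart, as far as 1 transcript of each shows. No stretch of 50 bases of IKZF1 NM_006060 occurred in an annotated transcript of another gene. Of such stretches of IKZF3 NM_012481, 1.8% did, none of them in another of the 9 genes. For each of the 9 genes 1 transcript was searched, and any other listed transcripts were not. For ZFP91, 31.6% of the stretches also lie in other genes, chiefly its readthrough transcript ZFP91-CNTF, so its reads are less certain. In the authors' deposited table ZFP91-CNTF had a mean of 0.859 normalized reads in siChe-1 and 1.58 in siControl. For CRBN, DDB1, CUL4A, CUL4B, RBX1 and BSG the share was 0%.

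Silencing was checked first. AATF stood at 14.2, 14.2 and 16.9 FPKM in siChe-1, against 97.0, 88.8 and 119 FPKM in siControl, a log2 difference of -2.57 ± 0.11 (SE; limma adjusted p = 0.000117). Each of the 5 libraries behind the spike-in table had between 19169774 and 21780505 gene reads. siChe-1 replicates 1 and 2 had 22.9 and 19.4 gene reads per spike-in read, while the siControl libraries had 38.8, 56.7 and 57.9. siChe-1 replicate 3 is not in that table, and its 379232 spike-in reads lay within the siControl range of 351573 to 519573. Its gene reads are not known, so its gene reads per spike-in read cannot be given. The 7 markers of plasma and myeloma cells were all listed, with summed levels of 711 to 765 FPKM in siChe-1 and 755 to 857 FPKM in siControl. Of the T cell markers only 1 of 5 was listed, at 0.363 to 0.730 FPKM in siChe-1 and 0.413 to 0.638 FPKM in siControl. Of the 4 monocyte markers 1 was listed (1.11 to 1.29 FPKM in siChe-1, 0.584 to 0.816 in siControl), of 4 erythroid markers 1 (0.0613 to 0.123 FPKM in siChe-1, 0.203 to 0.693 in siControl), and none of the stromal or epithelial markers.

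Relative to other genes, IKZF3 and ZFP91 rose, IKZF1 and BSG fell, and CRBN, DDB1, CUL4A, CUL4B and RBX1 did not pass. These are limma tests on log2(FPKM + 1) after the libraries had been brought to a common scale by the median of ratios. All 9 genes passed the minimum mean of 10 FPKM, so 2 of 9 were higher and 2 of 9 lower. Of the 6285 genes tested, 15.1% were higher and 15.1% lower (949 and 948 genes), so the shares among these genes are close to the background. With FPKM left as deposited the split over all genes was 592 higher and 1279 lower, and with upper quartile scaling it was 1221 higher and 713 lower. The median log2 difference was -0.02 over the 9 genes and 0.00 over all genes tested, and leaving FPKM as deposited put the median of all genes at -0.09.

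By mean FPKM over the 6 libraries the order of levels was DDB1, BSG, IKZF3, CUL4A, ZFP91, IKZF1, RBX1, CUL4B and CRBN. FPKM is scaled to transcript length, but the order between genes is approximate. Counted in reads, IKZF3 was below IKZF1 in each siControl library (3507, 3259 and 3321 against 4305, 4480 and 4638 reads). CRBN, the receptor, was the least abundant. Over the 6 libraries BSG lay wholly above IKZF3, and ZFP91 wholly above IKZF1. All other neighbours in this order had ranges that overlapped.

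**Figure D1:**
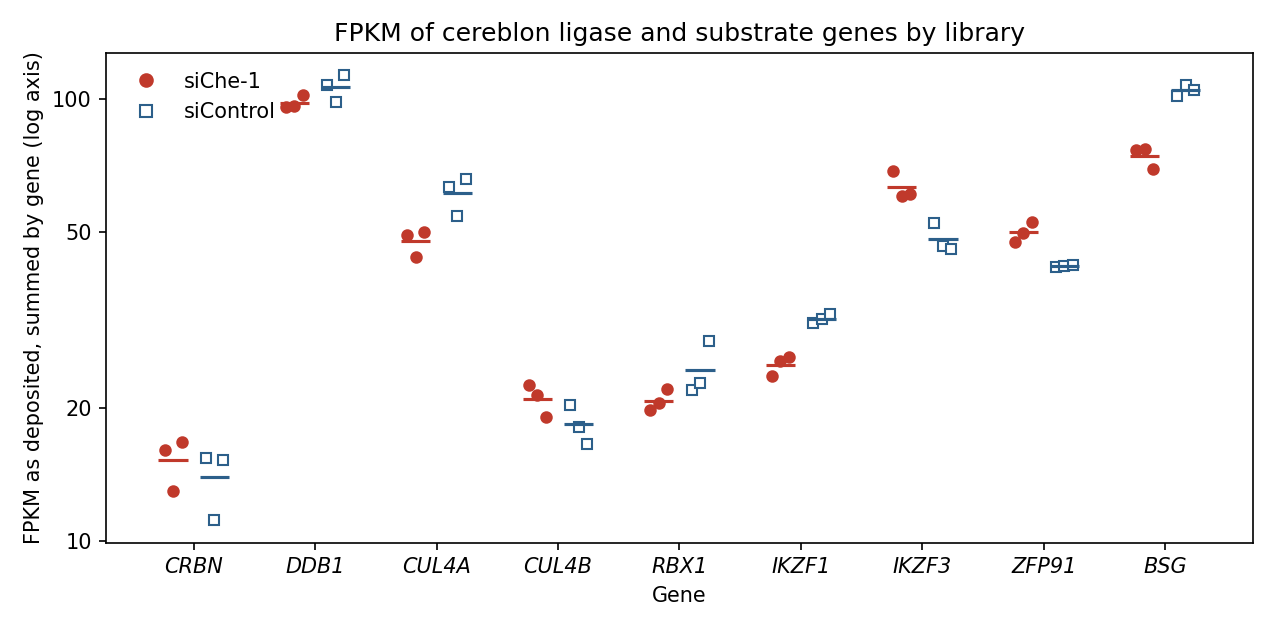
FPKM of each gene in each library on a log axis, siChe-1 (filled circles) left of siControl (open squares), in the order of the deposited lists, with a line at each group's mean. IKZF3 and ZFP91 lie higher and IKZF1, BSG and CUL4A lower in every siChe-1 library than in any siControl library, while the groups of the other 4 genes overlap.

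CRBN, the drug target itself (chr3:3191317-3221401 in hg19, minus strand), had 16.03, 12.9 and 16.7 FPKM in siChe-1, against 15.4, 11.1 and 15.2 FPKM in siControl. The groups overlapped, and in each group the library listed second was the lowest. The means were 15.2 ± 2.01 FPKM in siChe-1 and 13.9 ± 2.42 FPKM in siControl (SD, n = 3 each), with a log2 difference of 0.22 ± 0.13 (SE; limma adjusted p = 0.265).

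DDB1, the adaptor that holds cereblon on the cullin and also serves DNA damage recognition, had 95.8, 96.7 and 102 FPKM in siChe-1, against 108, 98.3 and 113 FPKM in siControl. The groups overlapped, and the log2 difference was -0.02 ± 0.08 (SE; limma adjusted p = 0.880). The listed locus (chr11:61066919-61136975 in hg19, minus strand) is shared with CYBASC3 on the same strand and with DAK and TMEM138 on the other. These had mean levels of 13.3, 4.3 and 12.4 FPKM.

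The 2 scaffold cullins, which can each carry the ligase, differed in direction. CUL4A (chr13:113863086-113919392, plus strand) had 49.4, 43.9 and 49.96 FPKM in siChe-1, against 63.3, 54.3 and 66.0 FPKM in siControl. Every siChe-1 library was below every siControl library, yet the log2 difference of -0.26 ± 0.09 (SE) did not pass (limma adjusted p = 0.0652). It did pass on the whole reads of 5 libraries scaled by TMM, which assumes that most genes do not change (-0.33 ± 0.10; edgeR adjusted p = 0.0246). CUL4B (chrX:119658446-119709684, minus strand) had 22.5, 21.4 and 19.0 FPKM in siChe-1, against 20.3, 18.1 and 16.6 FPKM in siControl. Its groups overlapped, and the log2 difference of 0.27 ± 0.11 (SE) did not pass (limma adjusted p = 0.0987).

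RBX1, the RING subunit shared with several other cullins (chr22:41347351-41369019, plus strand), had 19.7, 20.5 and 22.0 FPKM in siChe-1, against 21.9, 22.8 and 28.3 FPKM in siControl. The highest siChe-1 library overlapped the lowest siControl library, and the log2 difference was -0.12 ± 0.09 (SE; limma adjusted p = 0.368).

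IKZF1, which encodes Ikaros, had 23.5, 25.6 and 26.0 FPKM in siChe-1, against 31.0, 31.8 and 32.7 FPKM in siControl (chr7:50344378-50472798, plus strand). All siChe-1 libraries were below all siControl libraries. The log2 difference was -0.24 ± 0.07 (SE; limma adjusted p = 0.0333). Leaving out any 1 of the 6 libraries ended the call, with adjusted p between 0.0585 and 0.118, and so did upper quartile scaling (0.107).

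IKZF3, which encodes Aiolos, had 68.6, 60.3 and 61.0 FPKM in siChe-1, against 52.3, 46.5 and 45.8 FPKM in siControl (chr17:37921199-38020441, minus strand). The lowest siChe-1 library was above the highest siControl library. The mean was 63.3 ± 4.62 FPKM in siChe-1 and 48.2 ± 3.55 FPKM in siControl (SD, n = 3 each), a log2 difference of 0.48 ± 0.10 (SE; limma adjusted p = 0.0102). Of all genes tested, 93.0% had a lower log2 difference. IKZF3 was the only one of the 9 genes called here that stayed called under all 16 alternatives.

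ZFP91, a zinc finger protein of the same drug response that is also linked to NF-kappaB signalling, had 47.4, 49.7 and 52.8 FPKM in siChe-1, against 41.6, 41.9 and 42.0 FPKM in siControl. The groups did not overlap, and the SD of the siControl libraries was 0.23 FPKM. The log2 difference was 0.34 ± 0.07 (SE; limma adjusted p = 0.0121). It did not pass on whole reads of 5 libraries scaled by TMM (0.18 ± 0.10; edgeR adjusted p = 0.194), nor without the siChe-1 library listed last (limma adjusted p = 0.0576). The listed locus (chr11:58346587-58393205, plus strand) is shared with CNTF, at a mean of 3.37 FPKM.

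BSG, which encodes basigin, had 76.6, 77.0 and 69.6 FPKM in siChe-1, against 102, 108 and 105 FPKM in siControl (chr19:571325-583493, plus strand). Its groups lay far apart compared with their spread, at 74.4 ± 4.2 FPKM in siChe-1 and 105 ± 3.02 FPKM in siControl (SD, n = 3 each). The log2 difference was -0.40 ± 0.09 (SE; limma adjusted p = 0.0164), and 11.6% of all genes tested had a lower one. Without the siChe-1 library listed last the adjusted p was 0.0703.

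In all, 2 of the 9 genes were higher and 3 lower with no overlap of the groups' FPKM as deposited. Over all genes tested, 14.9% were higher and 30.3% lower by that criterion. On whole reads of 5 libraries scaled by TMM, IKZF3 was the 1 gene of the 9 called higher (0.41; edgeR adjusted p = 0.0149), and CUL4A, IKZF1 (-0.34; 0.0194) and BSG (-0.38; 0.0343) were called lower. Over all 12468 genes of that test 13.5% were higher and 15.3% lower.

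Against the spike-ins, RNA molecules of known sequence added to the samples, no gene of the 9 was higher in siChe-1. By the adjusted p of the authors' deposited table, 8 of the 9 were lower and IKZF3 did not pass. Of all 12591 genes in that table with a mean of at least 10, 63.5% were lower and 0.0635% higher by the adjusted p. At the unadjusted p of the authors' deposited table all 9 were lower and 0 higher, but no share of all genes was worked out there. By DESeq2 on whole reads and spike-in factors all 9 were lower, where 10614 of 12468 genes were lower and 20 higher. The median log2 fold change in the authors' deposited table was -1.32 over the 9 genes and -1.25 over all genes. Each library has 1 spike-in factor that all its genes share, so these calls largely restate 1 shift between 2 siChe-1 and 3 siControl libraries. Fewer cells, less RNA per cell and unequal addition of spike-ins cannot be told apart on this scale. The labels do not give whether spike-ins were added per cell or per amount of RNA.

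The order of the genes on that scale can be read from the authors' deposited table. BSG had the lowest log2 fold change there (-1.60, adjusted p = 0.00155), followed by IKZF1 (-1.58, 0.00132), CUL4A (-1.56, 0.00136), RBX1 (-1.47, 0.00424) and DDB1 (-1.32, 0.00465). CRBN (-1.19, 0.0146), ZFP91 (-1.06, 0.0245) and CUL4B (-1.06, 0.0241) came next in the authors' deposited table, and IKZF3 had the smallest loss (-0.80, 0.0775). A lower log2 fold change than that of BSG was found in 18.2% of genes of the authors' deposited table, a lower one than that of CRBN in 56.2% and a lower one than that of IKZF3 in 84.8%.

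The whole reads behind these means could be recovered for all 9 genes. CRBN had 526 and 584 reads in siChe-1 replicates 1 and 2, against 518, 443 and 632 reads in siControl replicates 1 to 3. Divided by the spike-in factors, these were 352 and 306 normalized reads in siChe-1 and 576, 716 and 953 in siControl. CRBN and RBX1, with 301 and 336 reads in siChe-1 and 337, 368 and 396 in siControl, rest on the fewest reads of the 9. IKZF1 had 3442 and 3703 reads in siChe-1, against 4305, 4480 and 4638 in siControl. IKZF3 had 4711 and 4324 reads in siChe-1, against 3507, 3259 and 3321 in siControl.

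IKZF3 thus had more reads in each siChe-1 library than in any siControl library, and fewer per spike-in. Its normalized reads were 3149 and 2267 in siChe-1, against 3901, 5266 and 5008 in siControl, with no overlap. IKZF1 had 2301 and 1942 normalized reads in siChe-1, against 4788, 7239 and 6994 in siControl. BSG had 2443 and 1604 in siChe-1, against 4626, 7438 and 6403 in siControl. For all 9 genes the siChe-1 libraries lay below the siControl libraries. The share of all genes that did so was not worked out, but edgeR on this scale called 10511 of 12468 genes lower.

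With edgeR on these reads and the spike-in factors all 9 genes were lower, where 84.3% of 12468 genes were lower and 0.192% higher. The standard errors were 0.32 to 0.38. They include the shift that all genes of a library share, so they do not measure the distance between genes. On the same reads scaled by TMM the standard errors were 0.10 to 0.14. On the spike-in scale IKZF3 had a log2 fold change of -0.80 ± 0.32 (SE; edgeR adjusted p = 0.0173). It lost its call when siChe-1 replicate 1 or 2, or siControl replicate 2 or 3, was left out. Without siChe-1 replicate 2, which leaves 1 siChe-1 library, calls became fewer among the 9 genes and also over all genes. The log2 fold changes of the 9 then ran from -1.46 (IKZF1) to -0.59 (IKZF3). The median over all genes was -1.12 in that fit and -1.24 with all 5 libraries. CUL4B also lost its call without siChe-1 replicate 1, and CRBN without siControl replicate 3.

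**Figure D2:**
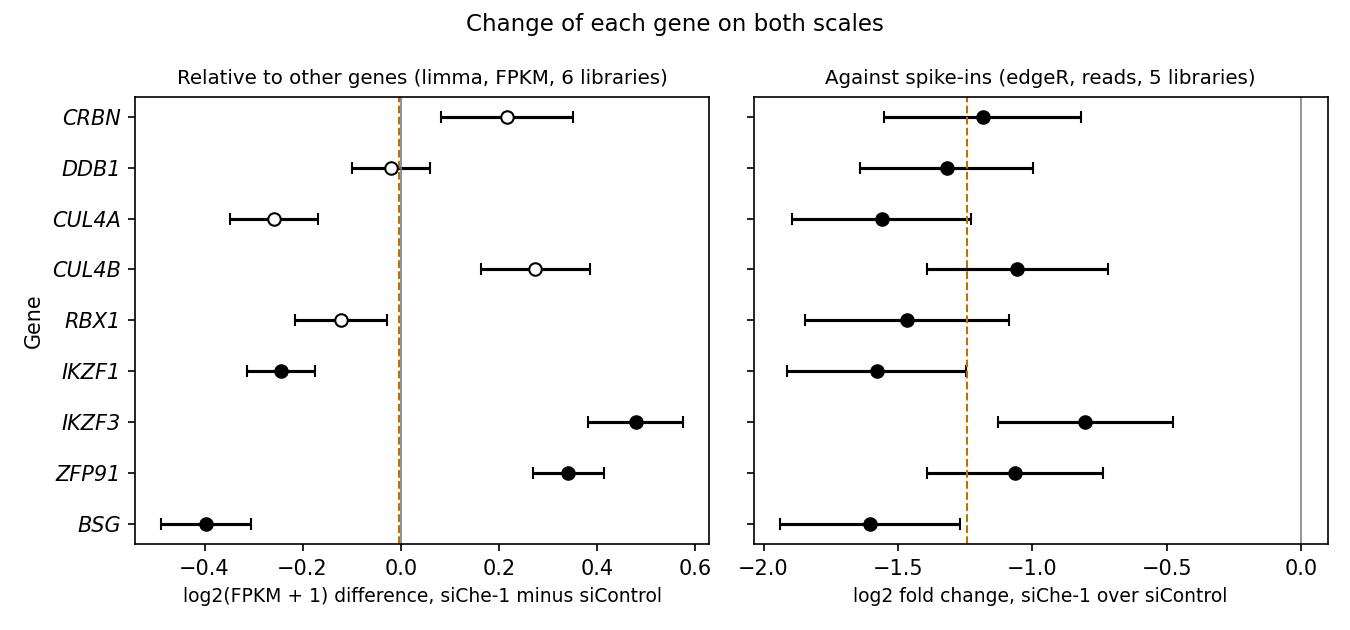
Left, log2(FPKM + 1) difference of each gene (limma, 6 libraries), and right, log2 fold change against spike-ins (edgeR, 5 libraries), siChe-1 over siControl, with bars for the standard error, filled points for adjusted p under 0.05 and a dashed line at the median of all genes. IKZF3 stands farthest to the right and BSG farthest to the left in both panels, at 0.48 and -0.40 on the left and -0.80 and -1.60 on the right.

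A ratio of 2 genes within a library does not depend on the library's scale, so ratios were compared between the groups with an exact two-sided permutation test. With 3 libraries against 3 its smallest p is 0.1, so none of the 7 ratios could pass 0.05. The ratio of IKZF3 to IKZF1, the pair of substrates with the same drug-binding finger, was 2.92, 2.36 and 2.34 in siChe-1, against 1.68, 1.46 and 1.40 in siControl. The groups did not overlap (exact p = 0.1, 0.175 after adjustment over the 7 ratios), and the log2 difference was 0.74. Counted in whole reads, the ratio was 1.37 and 1.17 in siChe-1, against 0.815, 0.727 and 0.716 in siControl, a log2 difference of 0.75. Its level was thus lower in reads than in FPKM in both groups. IKZF3 NM_012481 has 9667 bases and IKZF1 NM_006060 has 6302. The cause of the gap between FPKM and reads was not tested.

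The ratio of CUL4A to CUL4B was 2.19, 2.05 and 2.63 in siChe-1, against 3.11, 3.0 and 3.99 in siControl (log2 difference -0.55, exact p = 0.1, adjusted 0.175). In whole reads it was 1.69 and 1.49 in siChe-1, against 2.26, 2.27 and 2.26 in siControl. The 3 siControl libraries were close to one another on reads, and both siChe-1 libraries lay below them.

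Set against its receptor, IKZF1 stood at 1.47, 1.98 and 1.56 times the FPKM of CRBN in siChe-1, against 2.02, 2.86 and 2.15 times in siControl (log2 difference -0.48, exact p = 0.1, adjusted 0.175). BSG stood at 4.78, 5.96 and 4.17 times CRBN in siChe-1, against 6.61, 9.68 and 6.90 times in siControl (-0.63, exact p = 0.1, adjusted 0.175). Neither ratio overlapped between the groups on FPKM, but on whole reads the BSG ratio did. The ratio of IKZF3 to CRBN overlapped on FPKM (log2 difference 0.26, exact p = 0.2, adjusted 0.28) but not on whole reads, where it was 8.96 and 7.40 in siChe-1, against 6.77, 7.36 and 5.25 in siControl (log2 difference 0.35). On FPKM the groups also overlapped for DDB1 to CRBN (-0.25, exact p = 0.3, adjusted 0.35) and for ZFP91 to CRBN (0.12, exact p = 0.5, adjusted 0.5).

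**Figure D3:**
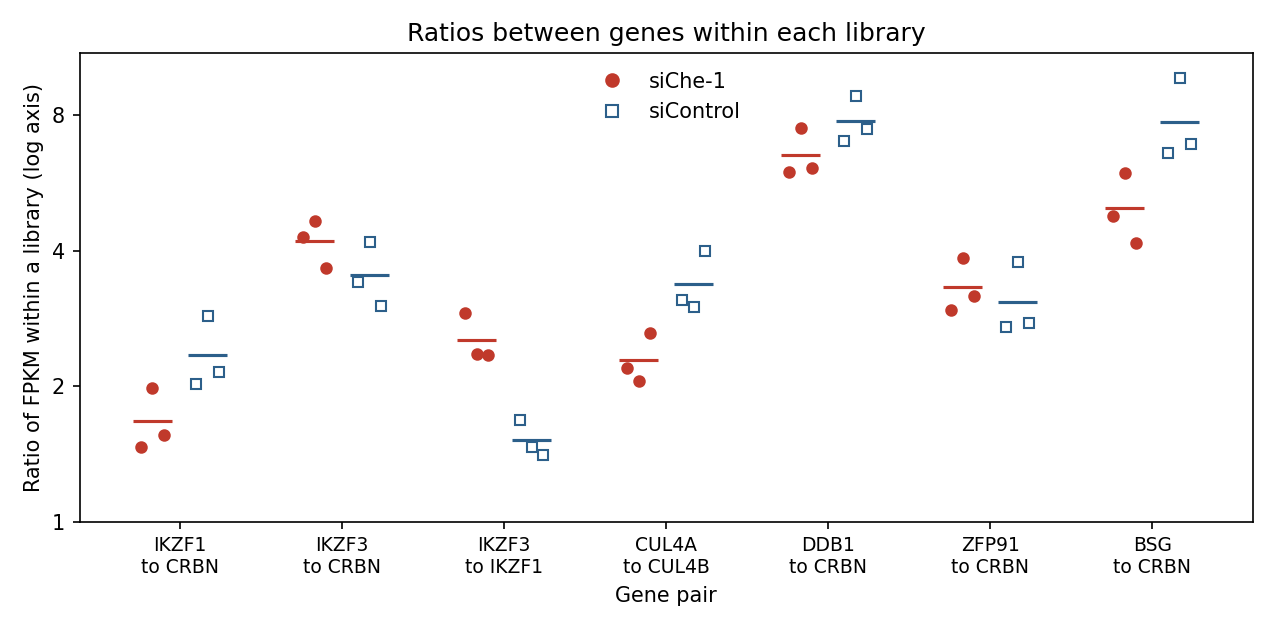
Ratio of the FPKM of 2 genes within each library on a log axis, siChe-1 (filled circles) left of siControl (open squares), with a line at each group's mean. IKZF3 to IKZF1 lies at 2.34 to 2.92 in siChe-1 and 1.40 to 1.68 in siControl, while CUL4A to CUL4B, IKZF1 to CRBN and BSG to CRBN lie lower in siChe-1 and the other 3 ratios overlap.

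The 9 genes had 26 listed transcripts, of which 19 had a mean of at least 1 FPKM and were tested singly. IKZF3 NM_012481 was higher (log2 difference 0.46 ± 0.08, SE; limma adjusted p = 0.0239) and BSG NM_198589 lower (-0.45 ± 0.08; 0.0275). Over all 15089 transcripts tested, 4.37% were higher and 5.39% lower. By q in the authors' deposited table BSG NM_198589 was the 1 called (q = 0.000601), where 7.98% of 18716 transcripts were higher and 10.3% lower, and IKZF3 NM_012481 had q = 0.0611 in that table. Neither transcript stayed called by limma when any 1 library was left out. Over all transcripts those fits called 21 to 248 higher and 23 to 344 lower, against 660 and 814 with all 6 libraries.

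IKZF3 NM_012481 held most of its gene's level, 68.5% in siChe-1 and 66.7% in siControl. It had 39.6, 43.6 and 46.8 FPKM in siChe-1, against 30.3, 32.2 and 34.1 FPKM in siControl. The groups did not overlap. IKZF3 NM_183231 had 27.0, 13.0 and 12.8 FPKM in siChe-1, against 18.8, 9.75 and 8.03 FPKM in siControl, with overlap and with the library listed first highest in each group (limma adjusted p = 0.467).

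CUL4A NM_001008895 held 75.7% of its gene's level in siChe-1 and 70.1% in siControl. CUL4A NM_003589 had 15.6, 2.91 and 16.3 FPKM in siChe-1, against 23.6, 6.02 and 25.4 FPKM in siControl. In each group the library listed second was by far the lowest. The list order carries no replicate number, so whether those libraries belong together was not tested.

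ZFP91 NM_053023 had 38.6, 40.3 and 43.4 FPKM in siChe-1, against 33.3, 34.6 and 33.6 FPKM in siControl. The groups did not overlap, and the log2 difference of 0.30 ± 0.07 (SE) just missed the threshold (limma adjusted p = 0.0511). ZFP91 NM_001197051 had 8.82, 9.40 and 9.39 FPKM in siChe-1, against 8.30, 7.26 and 8.48 FPKM in siControl. Its groups did not overlap either, and it did not pass (limma adjusted p = 0.189). Of CRBN's transcripts, NM_016302 held 96.7% of the level in siChe-1 and 93.9% in siControl, and NM_001173482 was listed at 0 in 2 siControl libraries.

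IKZF1 was spread over 11 transcripts, of which 6 were tested and none passed (limma; 1 was lower at the unadjusted p), and the split changed from library to library within a group. IKZF1 NM_001220772 had 0.0163, 8.35 and 14.3 FPKM in siChe-1, against 6.40, 0 and 11.2 FPKM in siControl. IKZF1 NM_006060, the full-length form, had 4.60, 7.84 and 7.27 FPKM in siChe-1, against 2.60, 12.04 and 9.56 FPKM in siControl. The summed level of IKZF1 was far steadier, at 25.1 ± 1.33 FPKM in siChe-1 and 31.8 ± 0.83 FPKM in siControl (SD, n = 3 each).

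**Figure D4:**
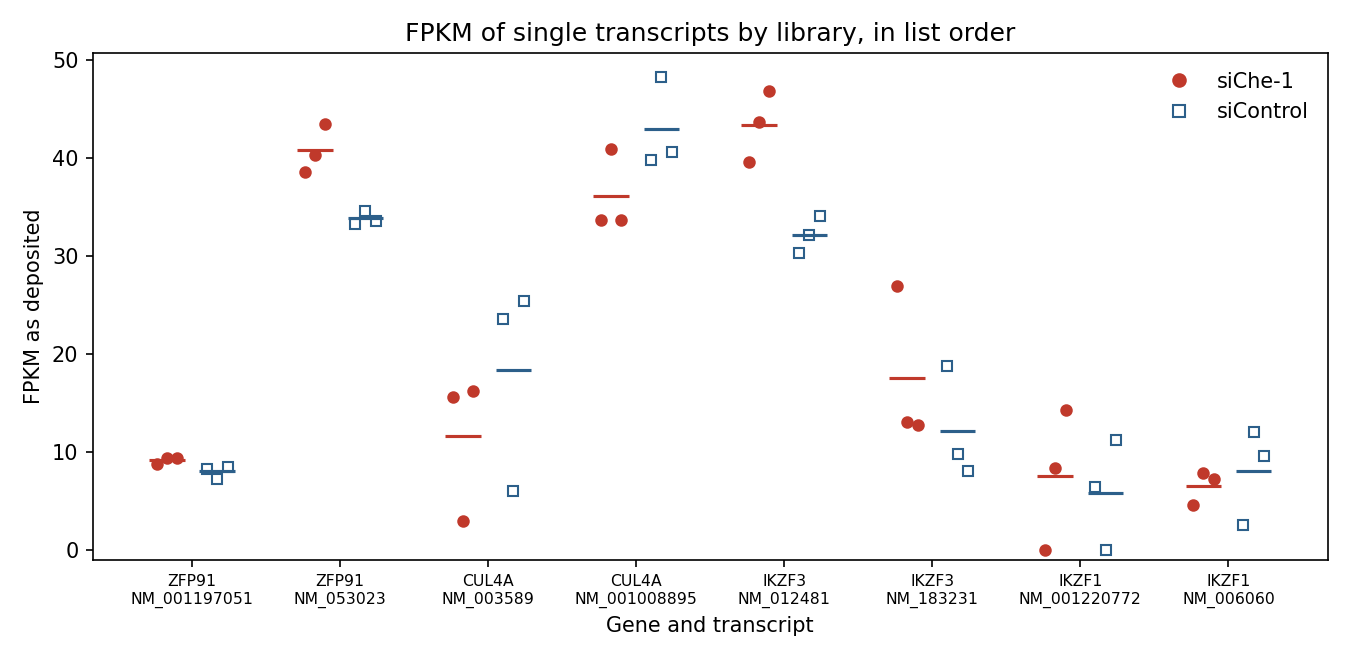
FPKM of the transcripts of ZFP91, CUL4A, IKZF3 and IKZF1 with a mean of at least 5 FPKM, by library in list order, siChe-1 (filled circles) left of siControl (open squares), with a line at each group's mean. IKZF3 NM_012481, ZFP91 NM_053023 and ZFP91 NM_001197051 separate the groups, while CUL4A NM_003589 and both IKZF1 transcripts vary more within a group than between groups.

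The promoters are shown for 3 of the genes whose relative level passed the test, IKZF1 and BSG (lower) and ZFP91 (higher). The RefSeq promoter table (GRCh38.p14) matched 8 of the 9 genes. Each line gives the 250 bases before an annotated start, 5′ to 3′ on the gene's strand, with matches to 5 motifs in capitals: the E-box CACGTG, the GC box GGGCGG, the CCAAT box CCAAT, the TATA box TATAAA and the Ikaros core TGGGAA, each read on both strands.
BSG, chr19:572346-572595, plus strand: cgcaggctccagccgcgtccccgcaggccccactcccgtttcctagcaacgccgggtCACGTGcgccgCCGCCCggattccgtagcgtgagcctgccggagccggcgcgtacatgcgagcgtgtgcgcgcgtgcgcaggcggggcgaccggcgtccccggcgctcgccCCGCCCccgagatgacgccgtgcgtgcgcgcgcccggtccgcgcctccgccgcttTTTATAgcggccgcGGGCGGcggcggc
IKZF1, chr7:50304466-50304715, plus strand: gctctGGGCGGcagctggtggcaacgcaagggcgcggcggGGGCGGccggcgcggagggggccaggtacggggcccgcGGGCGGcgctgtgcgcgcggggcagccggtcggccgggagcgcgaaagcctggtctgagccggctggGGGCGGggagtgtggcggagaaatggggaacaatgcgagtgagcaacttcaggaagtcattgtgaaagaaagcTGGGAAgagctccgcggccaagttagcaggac
ZFP91, chr11:58578813-58579062, plus strand: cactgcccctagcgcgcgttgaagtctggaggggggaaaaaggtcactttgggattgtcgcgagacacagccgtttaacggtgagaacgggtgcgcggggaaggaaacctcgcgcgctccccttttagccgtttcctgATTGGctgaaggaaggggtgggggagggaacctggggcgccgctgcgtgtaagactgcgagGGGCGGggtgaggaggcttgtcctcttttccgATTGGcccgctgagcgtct
The table lists 2 windows for BSG, 3 for IKZF1 and 1 for ZFP91, 1 for each annotated start, and the window shown for BSG and for IKZF1 is the one with the most matches. The BSG window shown held 1 E-box, 3 GC boxes and 1 TATA box, and the other BSG window held none of the 5 motifs. The IKZF1 window shown held 4 GC boxes and 1 Ikaros core, while another IKZF1 window held none and the last held 2 TATA boxes that overlap. The ZFP91 window held 1 GC box and 2 CCAAT boxes. No motif in the windows shown overlapped another. Of 35116 windows of this length, 6.3% held the E-box, 42.6% the GC box, 32.0% the CCAAT box, 10.7% the TATA box and 20.8% the Ikaros core. Of the 18 windows of the 8 matched genes, 10 held the GC box, and 3 each the E-box, the CCAAT box and the Ikaros core, while 2 held the TATA box. A match is a run of letters and not a measured site.

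The other genes of the pathway were counted by list, relative to other genes on FPKM. Of 60 genes tested, 4 were higher and 12 lower, beside the 15.1% of all genes in each direction. With FPKM as deposited 2 were higher and 17 lower, and with upper quartile scaling 7 were higher and 11 lower. Of the other substrate receptors of the same ligase and their partners, 4 of 14 were higher and 2 lower, with a median log2 difference of 0.09 against 0.00 over all genes. By edgeR with TMM 1 was higher and 4 lower, and at the unadjusted limma p 4 were higher and 4 lower. No share of all genes was worked out at the unadjusted limma p, here or for the lists below. DCAF7, a WD40 receptor, was higher, at 43.7 ± 2.55 FPKM in siChe-1 and 31.9 ± 2.26 FPKM in siControl (SD, n = 3 each; log2 difference 0.54 ± 0.09, SE; limma adjusted p = 0.0064). DCAF13, which also acts in ribosomal RNA processing, was lower, at 82.8 ± 2.66 FPKM in siChe-1 and 135 ± 15.3 FPKM in siControl (-0.60 ± 0.09; limma adjusted p = 0.00392).

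Cullins work only when the small protein NEDD8 is attached, and the COP9 signalosome takes it off again. Of 17 tested genes of this cycle, RBX1 included, 0 were higher and 4 lower, with a median of -0.17. At the unadjusted limma p 1 was higher and 6 lower, and by edgeR with TMM 0 were higher and 6 lower. COPS2, a signalosome subunit, had 35.5 ± 2.50 FPKM in siChe-1 and 53.3 ± 1.85 FPKM in siControl (SD, n = 3 each; log2 difference -0.48 ± 0.07, SE; limma adjusted p = 0.0039). COPS3 had 71.1 ± 2.32 FPKM in siChe-1 and 101 ± 8.26 FPKM in siControl (-0.40 ± 0.08; limma adjusted p = 0.0104). NEDD8 itself had 192 ± 8.62 FPKM in siChe-1 and 214 ± 21.8 FPKM in siControl, which did not pass (-0.05 ± 0.10; limma adjusted p = 0.721).

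Of the other cullins 1 of 4 was lower and 0 higher, also by edgeR with TMM and at the unadjusted limma p, with a median of -0.11. CUL5 had 16.3 ± 0.81 FPKM in siChe-1 and 25.1 ± 3.68 FPKM in siControl (SD, n = 3 each; log2 difference -0.50 ± 0.11, SE; limma adjusted p = 0.0139), while CUL1 (-0.13) and CUL2 (0.15) did not pass. Of the ubiquitin-carrying enzymes and other factors 1 of 9 was lower and 0 higher, with a median of -0.04 (by edgeR with TMM the same counts, and at the unadjusted limma p 1 lower and 2 higher). It was UBE2G1, an enzyme that this ligase uses on drug-recruited substrates, with 27.6 ± 1.61 FPKM in siChe-1 and 37.6 ± 1.87 FPKM in siControl (-0.34 ± 0.08; limma adjusted p = 0.0153). UBE2D3, its partner in that reaction, did not pass (-0.07), nor did ARIH1 (0.24; limma adjusted p = 0.0513).

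Among other proteins that drug-bound cereblon can recruit or that bind it, 1 of 8 tested was lower and 0 higher, with a median of -0.05 (at the unadjusted limma p 2 and 1, and by edgeR with TMM 2 and 0). GSPT1, a translation termination factor, had 84.4 ± 8.86 FPKM in siChe-1 and 118 ± 9.93 FPKM in siControl (SD, n = 3 each; log2 difference -0.39 ± 0.11, SE; limma adjusted p = 0.03). ZNF692 did not pass (-0.34 ± 0.11; limma adjusted p = 0.0506). The calls of CUL5, UBE2G1 and GSPT1 were lost without the siChe-1 library listed last, those of UBE2G1 and GSPT1 also without the one listed second, and that of GSPT1 without the siControl library listed first or last. Of the other Ikaros family genes 2 of 3 were listed, and none reached the minimum.

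Basigin's partners held the lowest values of any list. SLC16A1, the lactate transporter MCT1 that basigin escorts to the membrane, had 35.8, 32.0 and 35.2 FPKM in siChe-1, against 82.5, 62.6 and 76.5 FPKM in siControl. Every siChe-1 library was far below every siControl library, with a log2 difference of -0.98 ± 0.11 (SE; limma adjusted p = 0.00112). SLC16A7, the related transporter MCT2, had 9.36 ± 1.23 FPKM in siChe-1 and 19.9 ± 0.89 FPKM in siControl (SD, n = 3 each; -0.93 ± 0.10; limma adjusted p = 0.00126). PPIA, a secreted ligand of basigin, did not pass (-0.06). In all, 2 of 6 tested partners were lower and 0 higher, with a median of 0.03, and the counts were the same at the unadjusted limma p. By edgeR with TMM 2 of 5 were lower and 0 higher, and PPIA, whose reads had several solutions, was not tested.

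IRF4 and MYC, reported to fall in myeloma cells when Ikaros and Aiolos are degraded, differed from each other. IRF4 had 215 ± 14.9 FPKM in siChe-1 and 228 ± 14.5 FPKM in siControl (SD, n = 3 each), which did not pass (log2 difference 0.01; limma adjusted p = 0.944). MYC had 153, 143 and 138 FPKM in siChe-1, against 310, 285 and 284 FPKM in siControl, and fell by 0.92 on the log2 scale (limma adjusted p = 0.00109).

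On the spike-in scale of the authors' deposited table no gene of these lists was higher, also at the unadjusted p. By the authors' deposited table (adjusted p), 18 of 22 receptors, 22 of 24 genes of the NEDD8 cycle, 4 of 6 other cullins, 9 of 9 ubiquitin-carrying enzymes and other factors, 13 of 20 other cereblon targets, 1 of 3 Ikaros family genes, 6 of 7 basigin partners, and IRF4 and MYC were lower. In that comparison 63.5% of all genes were lower, so several of these counts, among them those of the other cullins and the other cereblon targets, are close to the background.

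**Figure D5:**
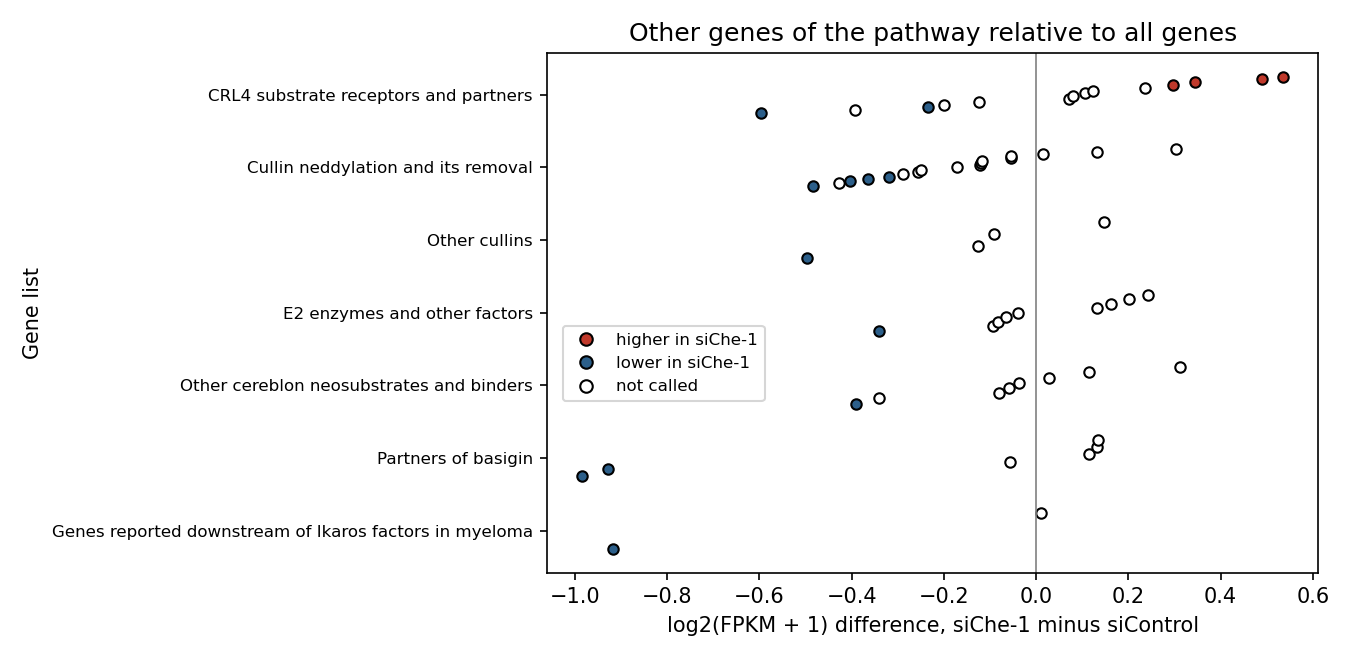
log2(FPKM + 1) difference, siChe-1 minus siControl, of each tested gene of the pathway lists, 1 row per list, with filled points for genes called higher or lower at an adjusted p under 0.05. SLC16A1 and SLC16A7 (-0.98 and -0.93) and MYC (-0.92) lie farthest to the left, and DCAF7 (0.54) farthest to the right.

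The genes whose rescaled level followed a member most closely over the 6 libraries were looked up among 6284 genes by Pearson's r, as a description. The 6 libraries make up 2 groups and share their scaling, so genes that differ between the groups follow one another. For CRBN these were RNF19A (r = 0.995), SYF2 (0.991) and OSBP (0.988), with 90 genes above 0.95. For IKZF1 they were MCRS1 (0.998), GNPAT (0.995) and HDGF (0.995), with 239 genes above 0.95. For IKZF3 they were PSME4 (0.995), CD200 (0.994) and ELMOD2 (0.994), with 200 genes above 0.95.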

How the data were processed

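Total RNA of KMS27 cells was sequenced with a stranded kit after ribosomal RNA removal, per the labels. The submitters' processing notes name hg19 and the tools HTSeq, TopHat, DESeq2, Cufflinks and Cuffdiff, without versions or roles. The authors deposited raw counts of 92 spike-ins in 6 libraries. Their comparison table holds a signal per gene (reads divided by spike-in factors, averaged by the authors over a group), a ratio, its log2 and p-values, per the file headers. Their transcript table holds FPKM of each group and 3 FPKM values per group without replicate numbers, with a log2 ratio, a p-value and a q-value, as deposited; its locus starts count from 0 and are given here from 1.

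Whole reads of 5 libraries were recovered from the authors' group means and spike-in factors (16321 of 16444 genes, 99.3%, relative tolerance 8e-15; the other 123, with 18.8% of normalized reads in siChe-1 and 19.7% in siControl, had several solutions). They were tested with edgeR 4.0.16 (quasi-likelihood) on spike-in factors or TMM, at a minimum mean of 10. FPKM of transcripts on assembled chromosomes was summed by gene, kept at a mean of at least 10 (transcripts: 1), rescaled by the median of ratios and tested as log2(FPKM + 1) with limma 3.58.1 with trend; differences on this scale understate the change of low genes. Adjusted p-values are Benjamini-Hochberg over all features tested, two-sided, threshold 0.05. The fits and the recovery were tested on simulated data. No source used here says that counting took the strand into account, so reads of genes that overlap on opposite strands may be mixed. Counting error sets the precision of low genes.

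The 9 genes and the lists were chosen with earlier results of these data known. Named were the 9 genes, AATF, of each list the 2 tested genes with the smallest limma p and the most abundant, and the 3 genes most alike to CRBN, IKZF1 and IKZF3. Alternatives were other scalings, minimums, pseudocounts and tools (DESeq2 1.42.0), a replicate block, and each library left out.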

Additional observations from a re-analysis of the deposited data

How the results depend on the processing

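On FPKM, 2 of the 9 genes were higher and 2 lower. The higher count was 1 with DESeq2, with edgeR and TMM, and with TMM and a replicate block. The lower count was 1 with upper quartile scaling. Leaving out a library gave 1 to 2 higher and 0 to 2 lower. Of all 6285 genes those fits called 495 to 837 higher and 492 to 870 lower, against 949 and 948 with all 6 libraries. CUL4A was called lower under 5 alternatives. DDB1 changed sign with upper quartile scaling (0.045) and without the siControl library listed last (0.0044). On the spike-in scale 9 were lower. Leaving out 1 siControl library gave 7 to 9 lower, where 8159 to 11631 of 12468 genes were lower. Leaving out siChe-1 replicate 1 or 2 leaves 1 siChe-1 library, and fewer of the 9 and fewer of all genes were then called. Replicates 1 and 2 share a number, and the labels name no other link. Deviations of same-numbered libraries correlated at 0.21 and 0.24. Those of siChe-1 1 with siControl 2 and of siChe-1 2 with siControl 1 correlated at -0.24 and -0.21. With 2 siChe-1 libraries these values mirror one another, so they cannot settle whether the libraries are paired. With that replicate block 0 of the 9 were called by edgeR on the spike-in scale (3 were lower at the unadjusted p), and 71 genes were lower and 1 higher over all genes, against 10511 and 24 without it.

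Of single transcripts, 1 higher and 1 lower became 0 and 0 when any library was left out. Over all 15089 transcripts 660 higher became 21 to 248, and 814 lower became 23 to 344. The higher count was 2 at a minimum of 10 FPKM and 0 by q in the authors' deposited table. CUL4A NM_003589 changed sign without the siChe-1 library listed second (0.079). In the lists, 4 genes higher became 2 with FPKM as deposited and with TMM and the replicate block, 1 at a minimum of 1 FPKM, with no minimum, with DESeq2 and with edgeR and TMM, 7 with upper quartile scaling, and 1 to 4 when a library was left out, while 12 lower became 6 to 11 when a library was left out and 11 to 17 under the other alternatives. NEDD8 and PPIA changed sign with upper quartile scaling (0.0097 and 0.0079), UBE2D3 without the siControl library listed first (0.016), and IRF4 with FPKM as deposited (-0.083), at a minimum of 1 FPKM (-0.051), with no minimum (-0.066), and without the siChe-1 library listed last (-0.023) or the siControl library listed second (-0.0090). The cause of these changes was not tested. Fewer of all genes were also called when a library was left out, as given above for FPKM. The 7 ratios kept their sign under all 8 alternatives.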
